A study of Mus musculus with 7 samples.

Results

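Carriers of amino acids and of neurotransmitters were examined in 7 mouse samples, 1 microarray each, as the genes with symbols of the solute carrier families Slc1, Slc3, Slc6, Slc7, Slc36, Slc38 and Slc43. The members were picked by symbol, with earlier results of these data known, and number 58 of the 18194 genes measured. SK7_ESC is the undifferentiated male ES cell line SK7, which carries a GFP transgene driven by the Pdx1 promoter, and all cultured samples stem from this line. Its derivatives in culture are Ect (ectoderm), End (endoderm) and Pme (paraxial mesoderm). The tissue samples Brain, Liver and Sk_muscle, the last being skeletal muscle, came from male ICR mice more than 9 weeks of age. The strain label of the cultured samples is also ICR, and no other allele or agent is given. The sources used here do not say how many mice gave a tissue, whether they were pooled, or whether feeder cells were present. With 1 array for each cell type or tissue there is no spread between replicates, so every difference below is a size with no test.

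The values are probe set intensities on a linear scale. A gene takes the value of the probe set whose mean log2 signal over the 7 arrays is highest, and a signal under 50 is called background. To be called higher in an array, a gene needs a signal there that exceeds 50 and a ratio of 2 or more to the array it is compared with. A dimmer signal under 50 enters the ratio as 50, and the fold is then a lower bound. Signals of different genes come from different probes and are not compared with each other. The labels were checked against marker genes. Markers above background were 6 of 6 for pluripotent cells in SK7_ESC, 5 of 6 for neural progenitors in Ect, 6 of 6 for definitive endoderm in End, 6 of 6 for neurons in Brain, 5 of 5 for hepatocytes in Liver and 6 of 6 for muscle fibres in Sk_muscle. In Pme they were 3 of 6 for paraxial mesoderm, with Tbx6 at 17.7 and Tcf15 at 29.1, and 4 of 6 for fibroblasts. These counts do not set Pme apart. Paraxial mesoderm markers were also 3 of 6 in Ect and 4 of 6 in Sk_muscle, and fibroblast markers 4 of 6 in Liver and 6 of 6 in Sk_muscle. The summed paraxial mesoderm signal was 1629.2 in Pme, 857.0 in Sk_muscle and 324.8 in Ect.

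Cells take up amino acids through carriers that differ in substrate and in driving force. Slc1 proteins are sodium-driven carriers of glutamate or of small neutral amino acids, and Slc6 proteins use sodium and chloride to take up transmitters such as GABA, glycine and monoamines as well as taurine, creatine and amino acids. Slc7 holds cationic amino acid carriers and the light chains that pair with the Slc3 heavy chains to form exchangers. Slc38 proteins carry glutamine and other neutral amino acids with sodium, Slc36 proteins are coupled to protons, and Slc43 holds facilitative carriers.

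Of the 58 members, 39 were above background in at least 1 array (67.2%), against 68.5% of all genes. Above background in all 7 arrays were 6 members (10.3%), against 27.8% of all genes. These were Slc3a2, Slc6a6, Slc6a9, Slc38a2, Slc38a7 and Slc38a10. Brain had 30 members above background, Ect 22, End, Pme and Liver 21 each, and SK7_ESC and Sk_muscle 18 each. Of all genes, 44.4% were above background in SK7_ESC. The share was 47.1% in Ect, 45.5% in End, 47.4% in Pme, 49.9% in Brain, 42.9% in Liver and 43.3% in Sk_muscle. The members' share was thus lower than that of all genes in every array but Brain, where it was 51.7%. No member was above background in cultured arrays alone (0 of 39, against 9.93% of all genes that passed background anywhere). Tissues alone held 11 (28.2%, against 19.8%), and 28 were above background in both (71.8%, against 70.3%). Of the 39 members, 17 had their highest signal in Brain (43.6%, against 21.5% of the genes above background), 7 in Liver (17.9%, against 17%) and 6 in End (15.4%, against 8.23%). The highest array was SK7_ESC, Pme and Sk_muscle for 3 members each (7.69%, against 15%, 8.24% and 18.1%) and Ect for 0 (against 11.9%). The share in Liver was near that of all genes.

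**Figure D1:**
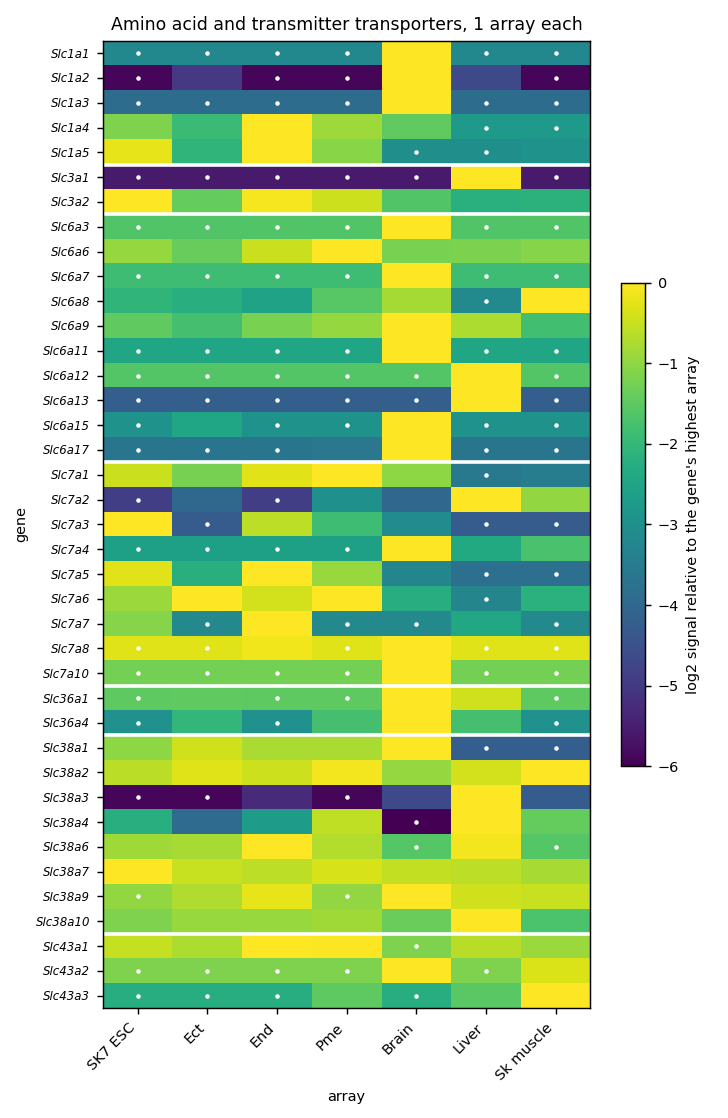
Signals of the 39 transporter genes above background in at least 1 array, with a line for each gene, a column for each of the 7 arrays and colour for the log2 signal relative to the gene's own highest array, after signals under 50 were set to 50. White dots mark signals under 50 and white lines part the families Slc1, Slc3, Slc6, Slc7, Slc36, Slc38 and Slc43, and 17 of the genes have their highest signal in Brain.

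In ectoderm, carriers of cationic and of neutral amino acids were among the members lower than in ES cells. Of the 58 members, 6 were lower in Ect than in SK7_ESC (10.3%, against 4.89% of all genes) and 0 were higher (against 6.62% of all genes). Slc7a3, a cationic amino acid carrier, was at least 19.2-fold lower in Ect, with signals of 957.5 (SK7_ESC), 35.8 (Ect), 632.5 (End) and 263.7 (Pme). Its signal in the tissues was 110.6 in Brain, 31.2 in Liver and 1.7 in Sk_muscle. SK7_ESC was thus the highest of the 7 arrays for this gene, and the signal in Ect lay among those of the tissues.

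The lower genes in Ect included both chains of a large neutral amino acid exchanger. Slc7a5, the light chain known as LAT1 that carries leucine and other large neutral amino acids, was 3.86-fold lower in Ect, with 582.4 (SK7_ESC), 150.9 (Ect), 703.3 (End) and 369.3 (Pme). Slc3a2, the heavy chain that brings LAT1 and related light chains to the membrane, was 2.69-fold lower in Ect, with 1335.1, 496.6, 1269.7 and 977.5 in this order of arrays. Slc1a5, an exchanger of glutamine and other neutral amino acids, had 343.2, 95.9, 402.6 and 192.7 in that order, which is 3.58-fold lower in Ect than in SK7_ESC. The other probe set of Slc1a5 was under background in all arrays, at most 46.0, and with the geometric mean of both the ratio was over 1.5 times smaller but still called. For these 3 genes Ect had the lowest signal of the 4 cultured arrays, and End was within 1.21-fold of SK7_ESC. Slc7a7, a further light chain of Slc3a2 that exports cationic amino acids, was at least 4.20-fold lower in Ect, with 16.9 there and 210.0 in SK7_ESC. Slc38a4, a sodium-coupled neutral amino acid carrier and an imprinted gene, was 3.25-fold lower, with 222.2 in Ect and 721.6 in SK7_ESC. Its other probe set had 379.7 in Ect and 728.1 in SK7_ESC, the same direction at under 2-fold.

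Not all carriers were lower in Ect. Slc7a6, a light chain of Slc3a2 that exchanges cationic for neutral amino acids, had 256.5 (SK7_ESC), 476.2 (Ect), 361.7 (End) and 482.5 (Pme), so that Ect and Pme were 1.86-fold and 1.88-fold above SK7_ESC, under the 2-fold rule. Its other probe set showed the same order, with 183.4, 348.9, 290.5 and 434.0. Slc38a1, a sodium-coupled glutamine carrier, had 455.8, 677.4, 538.7 and 539.7 in the same arrays, but its other probe set had 378.7, 260.8, 296.9 and 273.9, so that the direction in each layer depends on the probe set. Slc36a4, a proton-coupled carrier, had 19.2 in SK7_ESC and 95.5 in Ect, at least 1.91-fold higher. Slc1a2, the main glutamate carrier of astrocytes, had 94.0 in Ect against 1.9 in SK7_ESC, 7.1 in End and 11.0 in Pme. Ect was the 1 cultured array in which this gene was above background, at least 1.88-fold over the others. That rests on the probe set used, since its other probe sets were at most 18.3 in Ect. Of 6 astrocyte markers 1 was above background in Ect, Gja1, which was above background in every array. Of 6 neuron markers 5 were, with Snap25 (57.0) and Syt1 (50.2) near background, Rbfox3 at 87.9 and Nefl at 134.4. The fifth, Stmn2, had 483.4 in Ect but 1275.4 in SK7_ESC. The summed neuron marker signal was 845.9 in Ect, 1399.4 in SK7_ESC and 1110.5 in End. The part of either cell type in the Slc1a2 signal was not tested. Slc7a1, the cationic amino acid carrier of most growing cells, was called in no layer, with 425.3 (SK7_ESC), 254.9 (Ect), 494.4 (End) and 597.8 (Pme). Without replicates, ratios of this size cannot be told from array to array variation.

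**Figure D2:**
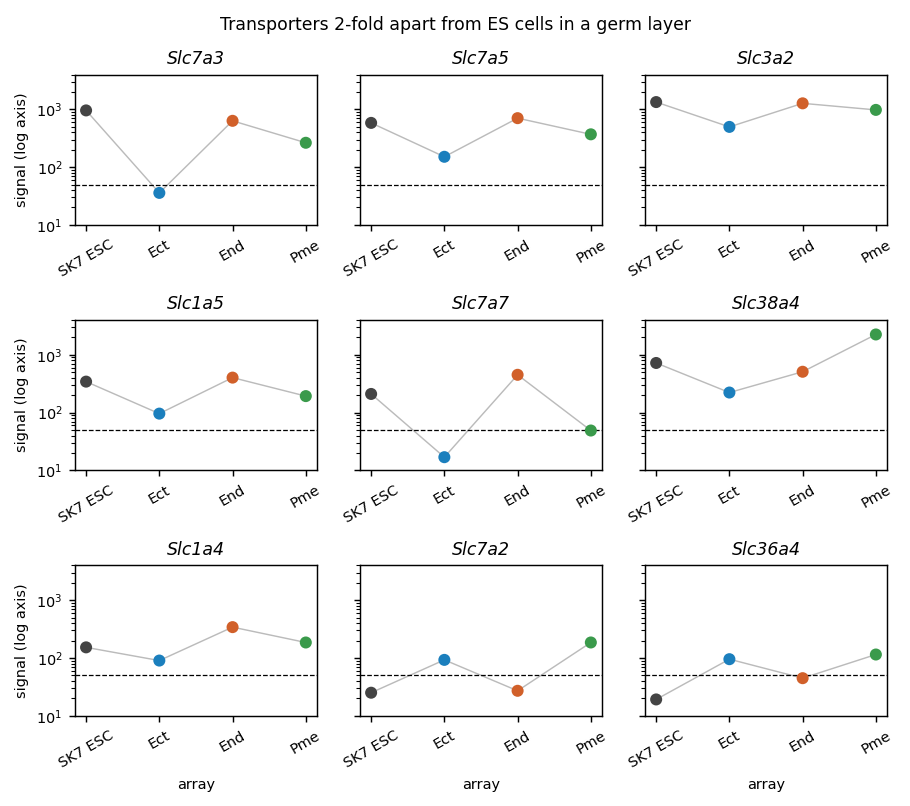
Signals (log axis) of the 9 transporter genes at least 2-fold apart from SK7_ESC in a germ layer, in the 4 cultured arrays, 1 point for each array, and a dashed line marks the background of 50. Ect is the lowest of the 4 points for Slc7a3, Slc7a5, Slc3a2, Slc1a5, Slc7a7, Slc38a4 and Slc1a4, and Slc38a4 reaches 2246.5 in Pme.

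In endoderm, 2 members were higher than in ES cells (3.45%, against 4.89% of all genes) and 0 were lower (against 3.81%). Slc1a4, a carrier of serine, alanine and other small neutral amino acids, was 2.24-fold higher in End, with 153.0 (SK7_ESC), 90.4 (Ect), 342.5 (End) and 185.7 (Pme). Its other probe sets gave 267.4 and 252.2 in End against 93.9 and 112.1 in SK7_ESC. All 3 probe sets were thus at least 2-fold higher in End. Slc7a7 had 210.0 in SK7_ESC, 450.3 in End, 16.9 in Ect and 48.9 in Pme, and was 2.14-fold higher in End. The other probe set had 273.2 in End and 160.5 in SK7_ESC, and with the geometric mean of both the gene was no longer called. Macrophages also use Slc7a7, and all 6 macrophage markers were under background in the 4 cultured arrays, where the highest was 36.2. Slc7a8, a light chain of Slc3a2 for neutral amino acids, was just above background in End at 55.8 and between 0.8 and 9.6 in the other cultured arrays. Slc38a3, a glutamine carrier of hepatocytes, was also above background in End alone of the cultured arrays, with 78.6 there and between 12.5 and 18.9 in the others. Its other probe set was at 1.3 in End.

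In paraxial mesoderm, 3 members were higher than in ES cells (5.17%, against 6.74% of all genes) and 2 were lower (3.45%, against 4.55%). Slc38a4 had 2246.5 in Pme and 721.6 in SK7_ESC, 3.11-fold higher, and 2632.0 against 728.1 with its other probe set. Slc7a2, a cationic amino acid carrier of liver and muscle, had 185.8 in Pme, 92.9 in Ect, 27.1 in End and 25.1 in SK7_ESC, at least 3.72-fold higher in Pme than in SK7_ESC. It had 4 probe sets, and all 4 had their highest cultured signal in Pme, but the others were at most 53.1 there, and with the geometric mean the log2 ratio was 0.38 and not called. Slc36a4 had 115.0 in Pme and was at least 2.30-fold higher than in SK7_ESC. Lower in Pme were Slc7a3 (3.63-fold) and Slc7a7 (at least 4.20-fold, with its 48.9 just under background). Slc7a7 and Slc3a2 have no probe set other than those whose identifiers mark sequence shared between transcripts or genes. Pme was thus the highest cultured array for Slc38a4, Slc7a2 and Slc36a4. The summed signal of the 6 fibroblast markers was 5035.0 in Pme, 1399.5 in Ect, 318.7 in SK7_ESC and 293.8 in End, and its part in these differences was not tested. In samples of many cells, fewer cells of a type and less RNA per cell cannot be told apart. The comparisons of the 3 layers share the SK7_ESC array. The median log2 ratio over the 58 members was 0.00 in each layer, as it was over all genes, since most of the ratios have both signals under background.

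Several of these carriers are known targets of the amino acid response, in which the transcription factor ATF4 induces carriers and enzymes of amino acid synthesis when amino acids run short. Of 18 measured genes of that response and of serine, proline and asparagine synthesis, 9 were lower in Ect than in SK7_ESC and 0 higher. Over all genes, 4.89% were lower in Ect and 6.62% higher. In End, 3 of the list were lower (against 3.81% of all genes) and 1 was higher (against 4.89%). In Pme, 5 were lower (against 4.55%) and 1 was higher (against 6.74%). The median log2 ratio of the list in Ect was -0.98, against 0.00 over all genes, and it was -0.15 in End and -0.40 in Pme. The list was chosen with earlier results of these data known, so its counts and medians describe these genes and test nothing. Asns, the asparagine synthetase, was 3.43-fold lower in Ect, with 1862.4 (SK7_ESC), 543.1 (Ect), 2529.0 (End) and 1426.6 (Pme). Psph, the last enzyme of serine synthesis, was 3.96-fold lower in Ect, and Mthfd2, a mitochondrial folate enzyme, was 3.39-fold lower. Chac1, a glutathione-degrading enzyme, was 2.11-fold higher in End and lower by at least 3.25-fold in Ect, with 162.3 in SK7_ESC and 341.9 in End. Ect was the lowest cultured array for Asns, Psph and Mthfd2. That did not hold for the whole list, since Nupr1, a stress-induced gene, was at least 5.59-fold lower in both Ect (27.9) and End (26.6) than in SK7_ESC (279.3), and Shmt1, a serine hydroxymethyltransferase, was lowest in End at 185.0, with 205.8 in Pme, 241.5 in Ect and 535.3 in SK7_ESC. Atf4 itself was called in no layer, with 1335.7 (SK7_ESC), 718.3 (Ect), 1508.1 (End) and 1290.1 (Pme). Phgdh and Psat1, the preceding enzymes of serine synthesis, had 954.9 and 1159.2 in Ect against 1111.5 and 1806.9 in SK7_ESC.

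**Figure D3:**
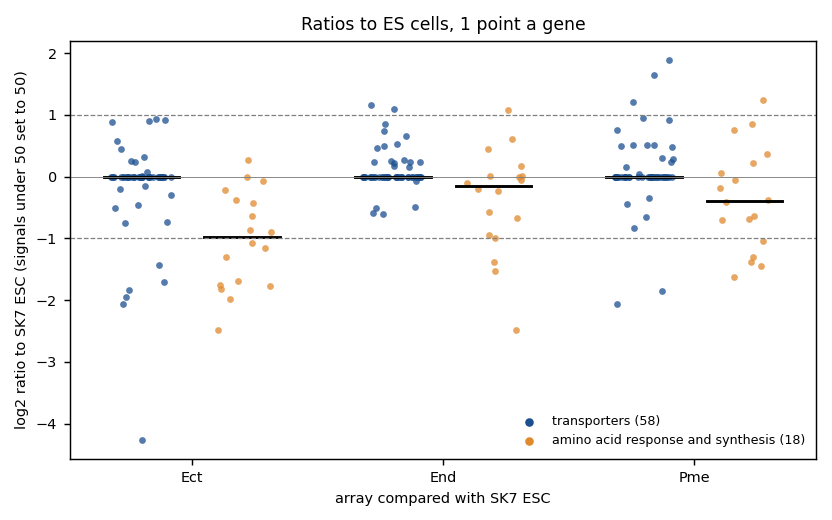
Log2 ratio of Ect, End and Pme to SK7_ESC (signals under 50 set to 50), 1 point for each of the 58 transporter genes (blue) and of 18 genes of the amino acid response and of amino acid synthesis (orange), with black bars at the medians and dashed lines at 2-fold. In Ect the orange median is -0.98 and the blue median 0.00, and the lowest blue point is Slc7a3.

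The promoter sequences of these genes were searched for the core of the C/EBP-ATF response element, the site through which ATF4 acts, written as TGATGNAA and read on both strands. The motif was chosen after the signals were seen. RefSeq promoters (GRCm38.p6), windows of equal length around a transcription start, were matched for 41 of the 58 members, with 62 promoters. Slc7a3, Slc7a5 and Slc1a5 were not among the matched genes. The motif was in 5 of the 62 promoters (8.06%), against 3.97% of all 32851 promoters of that length, and these belong to Slc1a4, Slc6a21, Slc7a7 and Slc7a11. A match of Slc7a7 lies in overlapping promoter windows, so that it enters the count of promoters more than once. Slc1a4 and Slc7a7 are the 2 members called higher in End, but Slc7a7 was also called lower in Ect and in Pme. Slc7a11, the cystine carrier xCT and a further light chain of Slc3a2, holds 2 matches but was under background in all 7 arrays, at most 24.6 in Brain with the probe set used and 26.3 with the other. Slc6a21 was also under background throughout. The promoter of Slc3a2 holds no match in this window. Of 21 promoters of the response list, 6 held it (28.6%). That list was drawn up from genes of the ATF4 response, so its share is not a separate result. Stretches with the matches in capitals are printed for Slc7a11, Slc7a7 and Slc1a4 and for Asns, which was lower in Ect and holds a match as well. They are on the minus strand, at chr3:50443651-50443680 for Slc7a11, chr14:54418067-54418096 and chr14:54417927-54417956 for the upper and lower Slc7a7 stretch, chr11:20332708-20332757 for Slc1a4 and chr6:7693210-7693272 for Asns. The matches of Slc7a11 begin 66 and 47 bases before a transcription start, those of Slc7a7 141 and 1 bases before, that of Slc1a4 4 bases before and that of Asns 23 bases before. Slc7a11 and Slc7a7 have further starts upstream of these windows.
Slc7a11: cTGATGCAAacctggagaatTTGCATCAtc
Slc7a7: ccgcttgggctTGATGAAAggttcactggg
Slc7a7: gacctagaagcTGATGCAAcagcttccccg
Slc1a4: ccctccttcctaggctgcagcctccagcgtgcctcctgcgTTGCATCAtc
Asns: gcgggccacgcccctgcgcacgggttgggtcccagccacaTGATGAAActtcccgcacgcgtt
The Slc7a11 stretch holds the motif on both strands, the Slc7a7 stretches and Asns in the written direction and Slc1a4 in the reverse one. A match is a description of the letters and not a site shown to be bound.

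In brain, carriers of glutamate and of other transmitters stood well above the other tissues. Of the 58 members, 15 were higher in Brain than in both Liver and Sk_muscle (25.9%, against 10.8% of all genes). Slc1a2 had 3011.8 in Brain, 118.2 in Liver and 4.7 in Sk_muscle, and was 25.5-fold higher in Brain than in Liver. Of its other probe sets, 1 had 656.9 in Brain and 21.8 in Liver, but another had 109.7 in Brain and 120.6 in Liver. The size of the difference, and for the last its direction, thus depends on the probe set. Slc1a3, the glutamate carrier GLAST of glia, had 738.8 in Brain, 5.8 in Liver and 38.1 in Sk_muscle, at least 14.8-fold higher. Slc1a1, the neuronal glutamate carrier, had 459.6, 6.0 and 44.1, at least 9.19-fold higher. With the geometric mean of probe sets, dim ones included, the log2 ratios were smaller but still called, 1.52 in place of 4.67 for Slc1a2, 1.58 in place of 3.89 for Slc1a3 and 2.44 in place of 3.20 for Slc1a1. By the probe sets used, these 3 glutamate carriers were higher in Brain than in all 6 other arrays. Slc1a6 and Slc1a7, glutamate carriers of Purkinje cells and of the retina, were under background everywhere, at most 40.8 (in Pme) and 12.9.

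Carriers of the Slc6 family that were higher in Brain included those of GABA, dopamine and proline. Slc6a17, a carrier of neutral amino acids on synaptic vesicles, had 633.9 in Brain, 26.5 in Liver, 40.3 in Sk_muscle and 51.7 in Pme. Brain was at least 12.7-fold over Liver and Sk_muscle, a log2 ratio of 3.66 that was 2.23 with the geometric mean of its probe sets. Slc6a15, a neuronal carrier of branched-chain amino acids, had 378.0 in Brain and 68.2 in Ect, and was under background elsewhere. Slc6a11, a GABA carrier of astrocytes, had 277.5 in Brain and at most 13.2 in any other array, at least 5.55-fold higher. Its other probe set was at most 9.0, and with the geometric mean it was not called. Slc6a7, the brain proline carrier, had 182.9 in Brain and at most 20.1 elsewhere, and Slc6a3, the dopamine carrier, had 153.4 in Brain and at most 21.9 elsewhere. Brain was the highest array for these 5 carriers, and the 1 array above background for Slc6a11, Slc6a7 and Slc6a3. Slc6a9, a glycine carrier of glia, was above background in all 7 arrays, with 217.6 in Brain, 130.8 in Liver, 111.8 in Pme and between 61.7 and 94.2 in the rest, and was not called. Slc6a4, the serotonin carrier, had 0.9 in Brain, Slc6a2, the noradrenaline carrier, had 8.6 and Slc6a5, the neuronal glycine carrier, had 5.4, all under background.

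Genes that make transmitters, break them down or load them into vesicles were set beside these carriers. Of 18 measured genes of this kind, 6 were higher in Brain than in Liver and Sk_muscle, against 10.8% of all genes. Another 2 were higher in Liver than in Brain and Sk_muscle, against 7.71%, namely Maob (6.71-fold) and Ddc (5.18-fold). Aldh5a1, an enzyme of GABA breakdown, was among the 6, at 2.67-fold. Gad1 and Gad2, which make GABA, had 2286.2 and 608.4 in Brain and at most 16.8 elsewhere. The vesicular glutamate carriers Slc17a6 and Slc17a7 had 788.5 and 559.1 in Brain and at most 16.6 elsewhere. For dopamine, Slc18a2, the vesicular monoamine carrier, had 109.3 in Brain and at most 29.5 elsewhere, and Th, the enzyme of dopamine synthesis, had 72.1 in Brain and at most 11.1 elsewhere. Slc6a3, Slc18a2 and Th were thus above background in Brain, but Th was under 2-fold over background and not called. Ddc, a further enzyme of dopamine synthesis, was not particular to Brain. It had 226.6 in Brain, 245.4 in End and 1174.6 in Liver, and was under background only in Sk_muscle, at 16.8. Tph2, the neuronal enzyme of serotonin synthesis, had 8.3 in Brain, under background like Slc6a4. Slc32a1, the vesicular GABA carrier, was also under background in Brain, at 2.5, where Gad1 and Slc6a11 were high. All 6 neuron, 6 astrocyte and 5 oligodendrocyte markers measured were above background in Brain, and their parts in the signals of single carriers were not tested.

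Other members higher in Brain carry general amino acids. Slc38a1 had 918.3 in Brain, 12.8 in Liver and 2.6 in Sk_muscle, at least 18.4-fold higher, with 191.1, 42.3 and 29.5 by its other probe set and a log2 ratio of 3.07 in place of 4.20 with the geometric mean of both. Slc7a1 had 295.2, 18.2 and 53.6, which is 5.51-fold over Sk_muscle, and with the geometric mean of its probe sets the log2 ratio was 0.52 and not called. Slc36a4 had 389.8 in Brain and 114.8 in Liver, and Slc7a4, a member of the cationic carrier group of unsettled transport function, had 301.4 in Brain and 91.8 in Sk_muscle. They were 3.40-fold and 3.28-fold higher in Brain than in the next tissue. Closer to the 2-fold limit were Slc1a4 (at least 2.48-fold), Slc7a10, a carrier of small neutral amino acids and D-serine (at least 2.38-fold), and Slc7a3 (at least 2.21-fold), and none of the 3 was called after scaling to the same median. Slc7a3 was lower in Brain (110.6) than in SK7_ESC (957.5).

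**Figure D4:**
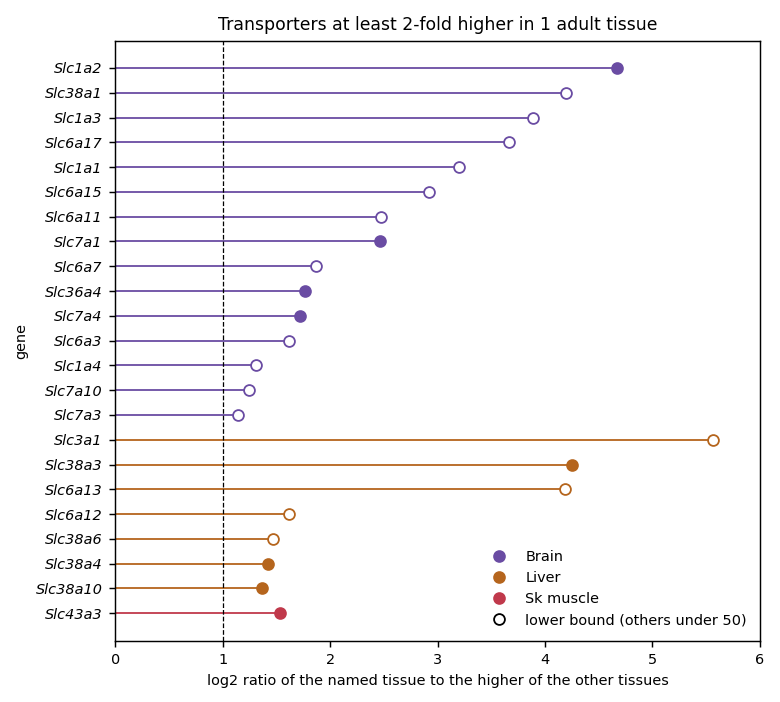
Log2 ratio of the named tissue to the higher of the other tissues for the 23 transporter genes at least 2-fold higher in Brain (15), Liver (7) or Sk_muscle (1), with open circles for lower bounds and a dashed line at 2-fold. Slc3a1 in Liver has the ratio farthest to the right, at least 47.5-fold.

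In liver, 7 members were higher than in Brain and Sk_muscle (12.1%, against 7.71% of all genes). Slc3a1, the heavy chain rBAT that serves cystine uptake in kidney, had 2372.6 in Liver and at most 15.1 in the other arrays, at least 47.5-fold higher. Slc7a9, its known light chain partner in kidney, was under background in Liver at 10.1, and Slc7a13, which also pairs with rBAT, was at 1.5 in Liver with the probe set used and at 23.3 with the other. A heavy chain was thus high in an array where both of these partners were under background. Slc6a13, a GABA and taurine carrier of hepatocytes, had 910.0 in Liver and at most 17.1 elsewhere, and Slc6a12, a betaine and GABA carrier, had 153.2 in Liver and at most 2.5 elsewhere. They were at least 18.2-fold and 3.06-fold higher in Liver than in any other array. Slc38a3 had 3005.4 in Liver, 157.6 in Sk_muscle, 116.9 in Brain and 78.6 in End, 19.1-fold over Sk_muscle. Its other probe set had 83.0 in Liver and 28.4 in Sk_muscle, under 2-fold over background, and with the geometric mean the log2 ratio was 2.90 in place of 4.25. Slc38a4 had 3334.4 in Liver, 1247.3 in Sk_muscle and a signal under background in Brain, 2.67-fold over Sk_muscle, and its other probe set had 2103.8 in Liver and 1086.8 in Sk_muscle, under 2-fold. Slc38a10 and Slc38a6, of less settled substrate, were 2.58-fold and at least 2.77-fold higher, and neither was called with the geometric mean of its probe sets. Slc7a2 had 1486.1 in Liver and 752.4 in Sk_muscle against 92.8 in Brain, so that Liver was 1.98-fold over Sk_muscle and just missed the call.

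**Figure D5:**
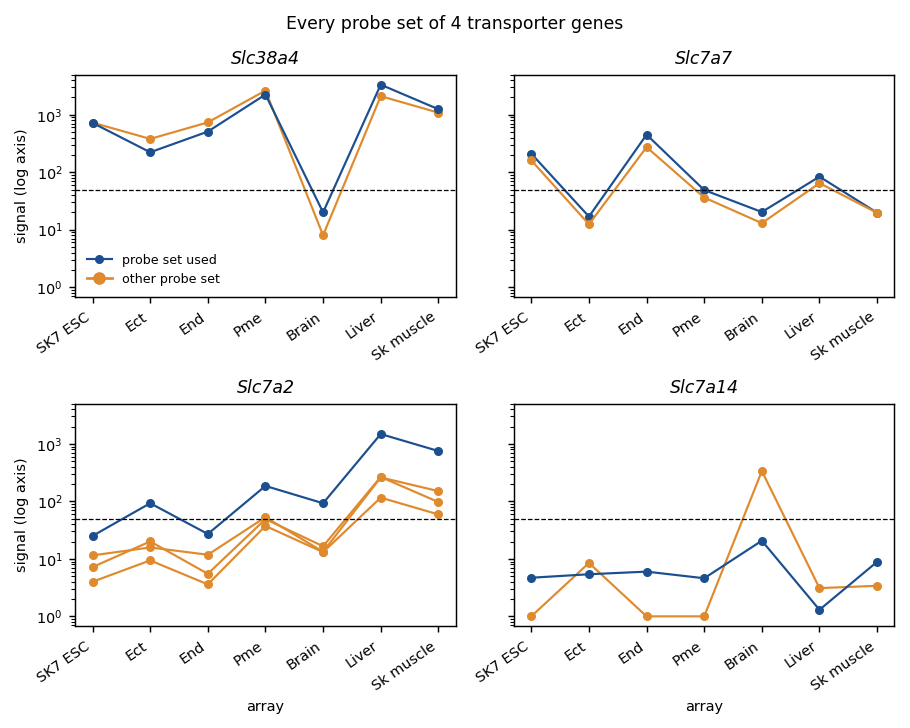
Signals (log axis, signals under 1 drawn as 1) of every probe set of Slc38a4, Slc7a7, Slc7a2 and Slc7a14 in the 7 arrays, with the probe set used in blue, the others in orange and a dashed line at the background of 50. The probe sets of Slc38a4 and of Slc7a7 run side by side, whereas 1 of the probe sets of Slc7a14 stands at 337.4 in Brain and the other at 20.7.

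In skeletal muscle, 1 member was higher than in Brain and Liver (1.72%, against 7.47% of all genes). It was Slc43a3, a carrier of purine nucleobases, with 238.3 in Sk_muscle, 82.6 in Liver, 9.0 in Brain and 84.8 in Pme, 2.88-fold over Liver. All 6 endothelial markers were above background in Sk_muscle, with a summed signal of 1244.6 there, 368.8 in Liver and 290.9 in Brain, and their part in the signal of Slc43a3 was not tested. Slc6a8, the creatine carrier, had 447.2 in Sk_muscle, 256.8 in Brain and 31.0 in Liver. It was 1.74-fold over Brain and at least 8.94-fold over Liver, and Sk_muscle was its highest array. Slc38a2, a neutral amino acid carrier that responds to starvation, had its highest signal in Sk_muscle too, at 2298.0, but spanned only 1.92-fold over all 7 arrays, with 1197.9 in Brain as the lowest. Its other bright probe set was lowest in Brain as well, at 166.7, but highest in Pme, at 510.4. Slc38a7, a glutamine carrier of lysosomes, was similarly even, at 62.1 to 107.5.

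Set against all 3 tissues, few members were higher in all cultured arrays. Higher in each of the 4 cultured arrays than in each tissue were 2 members (3.45%, against 4.19% of all genes), Slc7a5 and Slc7a6. Both are light chains of Slc3a2, but other light chains of it did not share this order. Slc7a7 had 16.9 in Ect and 83.7 in Liver, and Slc7a8 was highest in Brain, at 61.2. Slc7a5 had at most 73.0 in the tissues (Brain), with 3.2 in Liver and 2.5 in Sk_muscle, so that its lowest cultured signal, 150.9 in Ect, was 2.07-fold over Brain. Slc7a6 had 100.9 in Brain, 10.6 in Liver and 106.7 in Sk_muscle, 2.40-fold under its lowest cultured signal. Slc3a2 had 429.1 in Brain, 294.6 in Liver and 300.8 in Sk_muscle, and its lowest cultured signal was 496.6. Every cultured array was thus above every tissue for Slc7a5, Slc7a6 and Slc3a2, though for Slc3a2 by under 2-fold. Slc1a5 had 3.0 in Brain, 26.2 in Liver and 52.5 in Sk_muscle, also under its lowest cultured signal of 95.9. Lower in all 4 cultured arrays than in all 3 tissues were 0 members, against 0.709% of all genes.

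Members not yet described were called in no comparison. Slc6a6, the taurine carrier, had 442.4 in Pme, 317.4 in End and between 167.1 and 230.3 in the other arrays, under 2-fold in Pme, while its other bright probe set had 544.7 in Pme and 165.5 in SK7_ESC, over 2-fold. Slc43a1, a facilitative carrier of large neutral amino acids, had 111.2 in End, 107.8 in Pme and 4.3 in Brain, and Slc43a2, a relative of it, had 112.3 in Brain, 89.1 in Sk_muscle and at most 33.9 elsewhere. Slc36a1, a proton-coupled carrier of lysosomes, had 139.7 in Brain, 104.1 in Liver and 9.8 in Sk_muscle. Slc38a9, an arginine-sensing protein of lysosomes, was between 30.0 in SK7_ESC and 97.7 in Brain. By the probe sets used, 19 members were under background in all 7 arrays, with a highest signal of 41.8 among those probe sets, although another probe set of Slc7a14 had 337.4 in Brain. They were Slc1a6, Slc1a7, Slc6a2, Slc6a4, Slc6a5, Slc6a14, Slc6a16, Slc6a18, Slc6a19, Slc6a21, Slc7a9, Slc7a11, Slc7a12, Slc7a13, Slc7a14, Slc7a15, Slc36a2, Slc36a3 and Slc38a5.

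The 38 calls of the 29 called members were also read from other probe sets where these exist. For 16 calls the gene has 1 probe set. For 19 of the other 22, another probe set was above background in the brighter array, 29 probe sets in all, of which 28 differed in the same direction and 21 were called as well. The 1 exception is the Slc1a2 probe set with 109.7 in Brain and 120.6 in Liver. Probe sets of a gene share the RNA of an array, so that this compares probes and not samples.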

How the data were processed

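The authors hybridized biotin-labelled RNA to Affymetrix whole-genome mouse arrays, 1 for each sample. Deposited were 45101 probe set values of intensity on a linear scale, set by the authors so that the average signal of an array is 100. Leaving out 2% of probe sets at either end, each array averaged 100.0. No source used here names the algorithm that summarises probes. The labels name a column kit for RNA and the methods TRIzol. No depth exists for arrays, and their number limits the precision.

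Symbols came from the platform annotation. Genes with 1 symbol took the probe set whose mean log2 signal was highest, and all 58 members matched RefSeq (GRCm38.p6) by Entrez identifier with 0 symbols changed. Calls used a background of 50 and a 2-fold rule and were repeated under the alternatives of the closing section. They were also tried on a simulated copy of SK7_ESC with an assumed noise. Only bright genes were changed in that copy, so changes near background were not simulated. Members and lists were chosen with earlier results of these data known. All members could be named, and of the other lists up to 6 called genes with the largest ratios and genes that oppose the list, while Atf4, Phgdh, Psat1, Th, Tph2 and Slc32a1 were named after their values were seen. Marker lists covered pluripotent, neural, endoderm, mesoderm, neuron, astrocyte, oligodendrocyte, hepatocyte, muscle, fibroblast, macrophage, red blood cell and endothelial genes. Of 4 red blood cell markers, 1 was above background in Liver and 1 in Sk_muscle. Python 3.11.15 with numpy 2.4.6, pandas 2.3.3 and matplotlib 3.10.9 was used.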

Additional observations from a re-analysis of the deposited data

Results flagged for a closer look

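Slc7a7 was called in opposite directions in the germ layers, with 450.3 in End against 16.9 in Ect, 48.9 in Pme and 210.0 in SK7_ESC. Slc38a4 was likewise lower in Ect (222.2) and higher in Pme (2246.5) than in SK7_ESC (721.6). With 1 array for each layer these differences between layers were not tested.

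Slc7a14, a brain protein of the cationic carrier group, is under background by the probe set used (20.7 in Brain), but its other probe set had 337.4 in Brain and at most 8.5 elsewhere. That probe set was not used because its mean log2 signal over the 7 arrays is lower.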

How the results depend on the processing

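No paired analysis was possible because each group has 1 array, and leaving out an array removes its group. Of the 38 calls, 29 held under every alternative but the 3-fold rule in which the gene had a value, and 25 passed 3-fold. With a background of 20 all 38 were called and others were added, so that 7 members of End exceeded SK7_ESC, as did 6 of Pme and 3 of Ect. For Sk_muscle over the other tissues the count was then 2, and also 2 after median scaling. With the geometric mean of probe sets, and without probe sets whose identifiers mark shared sequence, 1 was higher in End. Without those probe sets Slc7a7 and Slc3a2 have no value, so that 1 was lower in Pme and 4 in Ect. With the 3-fold rule, 0 were higher in End, 4 in Liver, 0 in Sk_muscle and 0 in all cultured arrays. Calls lost numbered 6 with the geometric mean, 3 after median scaling and 1 after quantile normalization, and no call changed direction. Sizes depend more on these choices, since the ratio of highest to lowest array moved by over 1.5 times for 15 members with the geometric mean and for 33 with a background of 20. Median scaling moved the median log2 ratio of all genes to SK7_ESC (no floor) to -0.14 in Ect, from 0.08, and to -0.19 in Pme, from 0.05, and the 6 members lower in Ect stayed called under that scaling. Signals near 50 limit what can be called, and a change in the 19 members under background would be missed.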

Other observations

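Single genes of transmitter and amino acid handling outside these families were also called. Of 18 measured genes of transmitter synthesis, breakdown and vesicle loading, 1 was higher in End than in SK7_ESC, against 4.89% of all genes. In Pme 1 was higher, against 6.74%. These are thus single genes and not a result about that list. Tph1, the peripheral enzyme of serotonin synthesis, had 730.4 in End and at most 11.8 in the other arrays, at least 14.6-fold higher in End than in SK7_ESC, whereas the serotonin carrier Slc6a4 was at 1.4 in End. Maoa, a monoamine oxidase, had 490.1 in Pme and 198.5 in SK7_ESC, 2.47-fold higher. Of 10 measured genes of amino acid and peptide transport outside these families, 1 was higher in End than in SK7_ESC (against 4.89% of all genes), Mfsd12, a protein of lysosomal cystine import, with 165.2 in End and 31.2 in SK7_ESC. In Liver, 2 of the 10 were higher than in Brain and Sk_muscle (against 7.71%). They were Slc16a10, an aromatic amino acid carrier, with 547.6 against 120.1 in Sk_muscle (4.56-fold), and Slc17a5, a lysosomal carrier of sialic acid, with 259.9 against 106.3 in Brain (2.44-fold).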
